A study of Homo sapiens with 4 samples.

Results

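The genes described here are 10 nuclear receptors known for roles in skin. They were taken by symbol (VDR, RXRA, RARA, RARG, PPARA, PPARD, PPARG, NR3C1, RORA and ESRRA), and each was found as 1 row among the 44591 rows of every replicate. The RNA came from HaCaT, a line of spontaneously immortalised human keratinocytes, grown without treatment in Dulbecco's modified Eagle medium with serum (12% in the labels). All 4 samples are replicates of this single condition, without a comparison group, and the study used them to ask which sirtuin deacetylases keratinocytes express. The study calls them biological repeats, and whether each was a separate culture is not given in the sources used here, so p-values measure only the spread between these samples, part of which may be technical. HaCaT cells were cultured alone, without the fibroblasts, blood vessels or cornified layers of skin, and the line represents no donor-to-donor variation.

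Nuclear receptors are transcription factors that bind DNA through a pair of zinc fingers, and most change their activity when a small lipid-soluble ligand enters the ligand-binding domain. VDR, the retinoic acid receptors (RARs) and the peroxisome proliferator-activated receptors (PPARs) bind DNA as heterodimers with a retinoid X receptor (RXR), often at direct repeats of the hexamer AGGTCA. The glucocorticoid receptor NR3C1 waits in the cytoplasm with heat shock proteins and binds DNA as a homodimer, while ESRRA and RORA can bind as monomers. In epidermis these factors are known for their part in keratinocyte proliferation, cornification, lipid synthesis and the restraint of inflammation, and several are targets of topical drugs.

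Values are given in TPM (transcripts per 1000000), computed over the protein-coding genes from the deposited counts and gene lengths, so that levels of different genes can be compared per length. HaCaT cells expressed the retinoid partner RXRA and the orphan receptor ESRRA at the highest levels of the 10, with RARG next, and RORA was near the limit of detection. ESRRA had 153 ± 33.6 TPM (SD, n = 4), RXRA 121 ± 36.6 TPM and RARG 91.9 ± 20.7 TPM. A group of 6 receptors lay in a middle and low range, from RARA at 28.95 ± 18.4 TPM down to PPARA at 4.43 ± 1.96 TPM. RORA had 0.275 ± 0.0884 TPM. A mean above 1 TPM was taken as detected, which 9 of the 10 receptors reached, and the share over all 19233 protein-coding genes was 63.3%. The same 9 exceeded 1 TPM in every replicate, as did 56.7% of all protein-coding genes.

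The 250 bases before a transcription start are shown for the pair with the highest levels and for 2 receptors lower in the order, because the windows differ in base composition and motif content. The sequences are from RefSeq on GRCh38.p14, read 5′ to 3′ on the strand of the gene. Capitals mark the GC box (GGGCGG or its complement CCGCCC, a motif bound by SP family factors) and the nuclear receptor hexamer (AGGTCA or its complement TGACCT), with overlapping matches both counted. The ESRRA window lies at chr11:64305274-64305523 (+), the RXRA window at chr9:134326205-134326454 (+), the PPARG window at chr3:12287118-12287367 (+) and the RORA window at chr15:60627531-60627780 (-).
ESRRA: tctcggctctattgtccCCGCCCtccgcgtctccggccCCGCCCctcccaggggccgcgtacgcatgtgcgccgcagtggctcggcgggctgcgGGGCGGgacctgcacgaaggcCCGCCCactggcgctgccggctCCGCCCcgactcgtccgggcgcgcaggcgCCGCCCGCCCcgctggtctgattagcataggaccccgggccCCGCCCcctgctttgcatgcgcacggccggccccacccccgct
RXRA: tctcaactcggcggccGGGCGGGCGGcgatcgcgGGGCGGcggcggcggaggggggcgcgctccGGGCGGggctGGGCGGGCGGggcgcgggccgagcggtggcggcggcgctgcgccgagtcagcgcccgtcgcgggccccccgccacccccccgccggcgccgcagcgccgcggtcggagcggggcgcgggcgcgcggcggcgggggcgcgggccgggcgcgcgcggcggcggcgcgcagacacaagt
PPARG: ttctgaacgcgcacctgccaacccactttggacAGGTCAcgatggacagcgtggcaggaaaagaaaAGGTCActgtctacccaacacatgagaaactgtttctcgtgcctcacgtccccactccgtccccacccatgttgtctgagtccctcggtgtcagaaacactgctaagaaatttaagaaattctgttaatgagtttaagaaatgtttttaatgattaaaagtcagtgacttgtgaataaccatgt
RORA: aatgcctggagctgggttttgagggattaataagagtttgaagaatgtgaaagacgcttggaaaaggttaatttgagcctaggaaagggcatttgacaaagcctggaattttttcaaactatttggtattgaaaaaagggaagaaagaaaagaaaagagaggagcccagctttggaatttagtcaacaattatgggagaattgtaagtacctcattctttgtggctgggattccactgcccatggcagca

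The ESRRA window was 78.0% G or C with 8 GC boxes, and the RXRA window was 89.2% G or C with 6. The PPARG window, at 44.8% G or C, held no GC box and 2 copies of the AGGTCA hexamer. It was picked as the window with the most hexamers of the 6 given for PPARG, and windows 4, 5 and 6 held none. No copy of either motif was found in the RORA window, which was 40.0% G or C and was the only window given for RORA. The 5′ end of RORA on hg19 is at 61521502, so the window may lie before an internal start of this long gene. Its place in the gene was not tested, and it may not stand for the main RORA promoter. Windows rich in G and C were not particular to the receptors with the highest levels. PPARA, lower in level than PPARG, had windows of 84.4 and 87.2% G or C with 6 and 9 GC boxes. The second RXRA window was 64.4% G or C with 1 GC box. Several of these genes have more than 1 start site, and 24 windows were given for 9 of the 10 receptors. VDR had no entry. A GC box occurred in 15 of the 24 windows, against 42.6% of all 35116 promoter windows of the same length. At least 1 window of 7 receptors held it, a count per gene to which that share does not apply. The hexamer occurred in 4 of the 24 windows, those of RARA and PPARG, against 12.1% of all windows. PPARG windows 2 (chr3:12288810-12289059) and 3 (chr3:12288820-12289069) overlap, so the same copy may be counted in both. These matches describe the letters only. The start site used in HaCaT was not tested.

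The libraries held 17056035 to 73082279 counts, and replicate 1 was the deepest. Protein-coding genes took 76.1% of the counts in replicate 1 and 95.3 to 96.4% in the others. Of TPM computed over all rows they took 31.0% in replicate 1 and 87.4 to 93.0% in the others. Over detected protein-coding genes replicate 1 correlated with the other replicates at a Spearman's rho of 0.754 to 0.780, and the other 3 correlated with each other at 0.944 to 0.967. This library therefore stood apart, and values by replicate or without it are given for the receptors it moves most. The keratinocyte markers were all detected (10 of 10, summed level 11389 to 16365 TPM per replicate, with KRT14 at 6847 ± 561 TPM). Markers of other skin cells were low, with 2 of 7 fibroblast genes, 1 of 5 melanocyte genes, 1 of 5 immune genes, 1 of 5 adipocyte genes and 0 of 4 endothelial genes above 1 TPM. Their summed levels were 5.20 to 9.70, 1.60 to 3.52, 8.31 to 43.9, 1.02 to 5.02 and 0.859 to 2.36 TPM in that order. CD68 made up nearly all of the immune sum, PTPRC had 3 counts in replicate 1 and none elsewhere, and ADIPOQ, CIDEC, PECAM1, KDR and CD207 had no count in any library. Other genes of these lists did have reads. VWF had 507, 7, 0 and 6 counts, CDH5 had 0, 21, 32 and 46, and LIPE had 74, 105, 99 and 135. The fibroblast genes were highest in different libraries. COL1A1 had 72, 194, 100 and 377 counts, COL1A2 had 0, 7, 102 and 0, and COL3A1 had 10, 3, 134 and 28. DCN had 186, 0, 26 and 0 counts and LUM had 172, 0, 23 and 6. PDGFRA and PDGFRB had no more than 14 counts in any library. In bulk RNA fewer cells expressing a receptor and less RNA per cell cannot be told apart.

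RXRA, the common partner of the heterodimeric receptors, lies at chr9:137218309-137332432 (+) on hg19, the build of all gene positions below. It measured 133, 120, 72.5 and 160 TPM in replicates 1 to 4, from 23705, 5824, 4765 and 8711 counts. The lowest library was replicate 3, and replicate 1 lay inside the range of the others. The mean stood at percentile 88.7 of the 12165 detected protein-coding genes. RXRB, the ubiquitous relative, had 31.8 ± 8.25 TPM, and RXRG, which is known from muscle and brain, had 1 count in all 4 libraries together. RXRA supplied 77.3, 83.5, 73.8 and 80.5% of the summed RXR level in replicates 1 to 4 (78.8 ± 4.16%). Per length there were 2.82 to 5.06 RXRA counts for each RXRB count. RXRA was the leading RXR transcript in all 4 libraries.

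RXRA was also set against the summed level of its 6 partners among the 10 receptors, VDR, RARA, RARG, PPARA, PPARD and PPARG. This ratio was 0.967, 0.537, 0.510 and 0.692 in replicates 1 to 4 (0.676 ± 0.210), so RXRA transcripts were fewer than those of the partners in every library at the deposited lengths, by little in replicate 1. That direction depended on the RXRA length, which is 7310 bases in the deposited tables. The mean ratio was 2.60, above 1 in every library, with the exons of protein-coding transcripts as length (2115 bases for RXRA), and 1.24 from counts without length, below 1 in 2 of 4 libraries. With all 3 RXRs against 11 partner receptors, liver X and thyroid hormone receptors among them, the ratio was 0.631, 0.405, 0.369 and 0.566 (0.492 ± 0.126). RARG alone carried much of the partner sum. RXRA exceeded each single partner in all 4 replicates, by 0.37 ± 0.22 log2 units over RARG, 2.07 ± 0.46 over VDR, 2.27 ± 1.32 over RARA, 2.78 ± 0.91 over PPARD, 3.14 ± 0.17 over PPARG and 4.53 ± 0.13 over PPARA (SD of the within-replicate difference of log2(TPM + 1), n = 4). RXRA was on average the higher gene in these pairs with other lengths too, but the size moved, to 2.34 over RARG, 3.96 over VDR, 4.05 over RARA and 4.58 over PPARD with the exons of protein-coding transcripts as length, and to 1.46 over RARG without length. Without replicate 1 the difference from RARA was 1.65. Each of these differences had p = 0.125 by a two-sided exact sign-flip permutation test, the smallest value that 4 replicates allow, so no pair can pass 0.05.

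**Figure D1:**
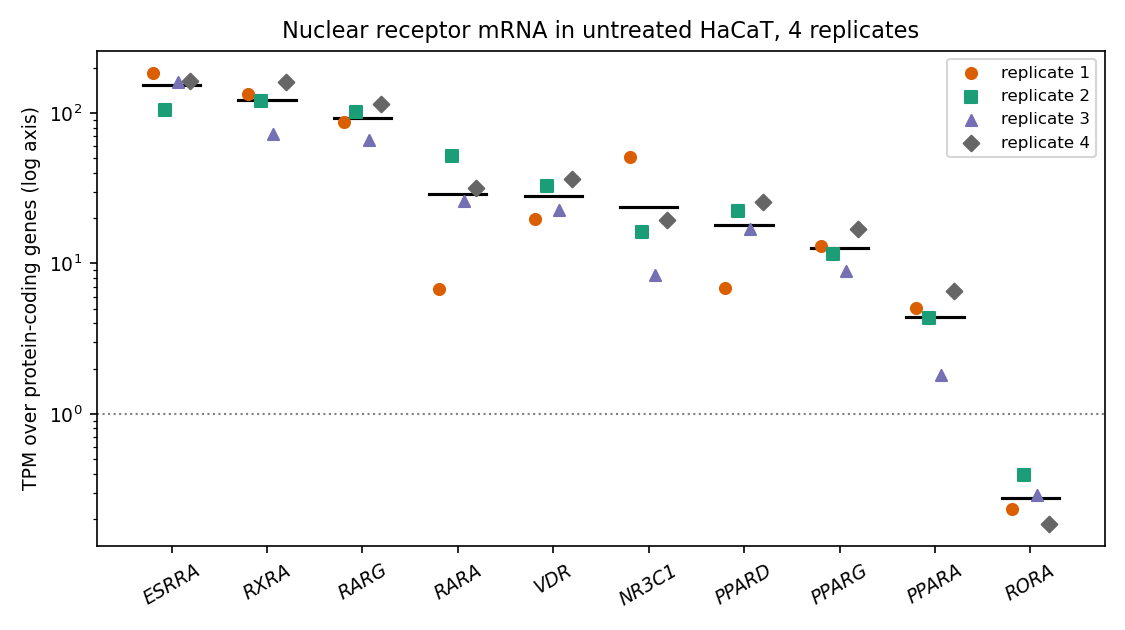
Level of the 10 receptors in TPM over protein-coding genes (log axis), with a point for each of the 4 replicates and a bar at the mean. ESRRA, RXRA and RARG lie above the others in every replicate, replicate 1 sets the lowest value of RARA and PPARD and the highest of NR3C1, and RORA lies below 1 TPM in all 4.

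Of the retinoic acid receptors, RARG was the main transcript and RARB was near the threshold. RARG (chr12:53604350-53626040, -), the RAR that predominates in epidermis, measured 86.5, 101, 65.9 and 114 TPM from 7211, 2305, 2031 and 2918 counts. Replicate 3 was again the lowest and replicate 1 was inside the range. RARA (chr17:38465423-38513895, +), the more widely expressed relative, measured 6.74, 51.4, 26.1 and 31.5 TPM from 714, 1491, 1024 and 1024 counts. Replicate 1 was far below the other 3, which spanned 26.1 to 51.4 TPM, and the mean of RARA without it was 36.4 TPM. RARB, a gene induced by retinoic acid and often silenced in tumours, had 1.52, 0.605, 0.644 and 1.42 TPM (mean 1.05).

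Per length RARG had 12.8 counts for each RARA count in replicate 1 (95% Clopper-Pearson interval 11.9 to 13.9), 1.96 in replicate 2 (1.84 to 2.10), 2.52 in replicate 3 (2.34 to 2.72) and 3.62 in replicate 4 (3.37 to 3.89). RARG was thus the higher gene in 4 of 4 replicates, and the size of the gap differed between libraries by more than counting error. These intervals cover only counting error, and PCR copies are not separate molecules in such libraries. On the log2(TPM + 1) scale the difference was 1.90 ± 1.13 (exact permutation p = 0.125, the smallest possible), and 1.36 without replicate 1. RARA-AS1 overlaps RARA on the opposite strand and had 261, 66, 39 and 72 counts. Whether counting used strand is not given in the sources used here, and the part of antisense reads in the RARA counts was not tested.

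**Figure D2:**
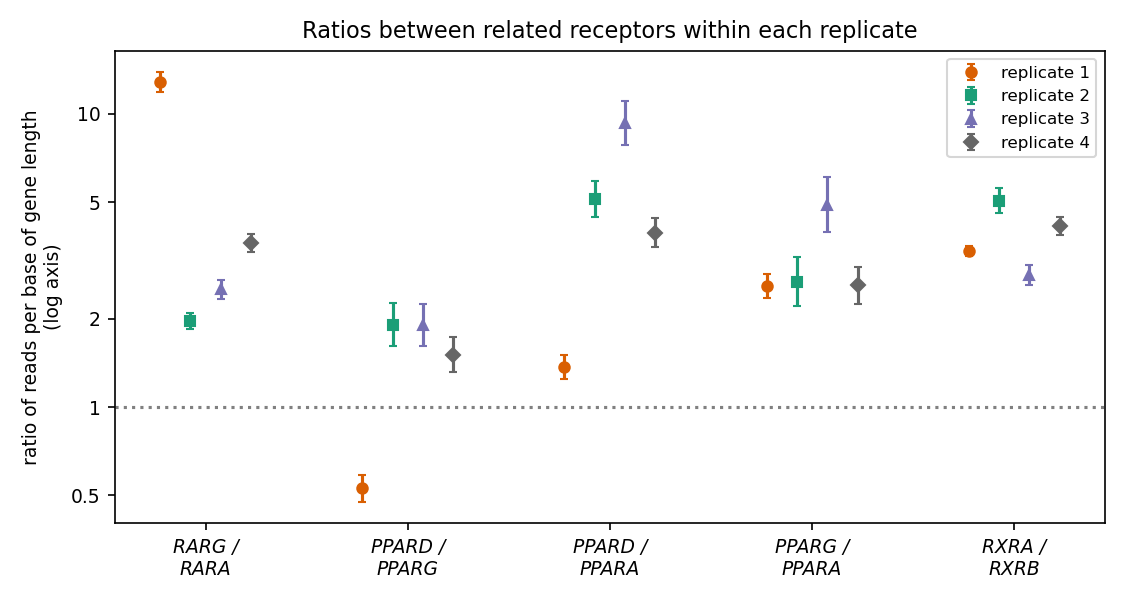
Ratio of counts per length within each replicate (log axis) for pairs of related receptors, with 95% Clopper-Pearson intervals that cover counting error. RARG over RARA is above 1 in every replicate and highest in replicate 1 (12.8), while PPARD over PPARG is below 1 in replicate 1 (0.528) and above 1 in the other 3.

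VDR (chr12:48235320-48298814, -), the receptor for calcitriol and the target of vitamin D analogues used in psoriasis, measured 19.8, 32.7, 22.7 and 36.3 TPM from 2484, 1123, 1053 and 1396 counts. Its mean of 27.9 ± 7.88 TPM stood at percentile 54.2 of detected genes, close to the middle. Replicates 2 and 4 were the higher pair, and the highest library was 1.83 times the lowest. Of 7 genes of vitamin D metabolism and response, 4 were detected. DHCR7, which removes the cutaneous vitamin D precursor into cholesterol synthesis, had 68.0, 270, 222 and 321 TPM. CYP27B1, the enzyme that makes calcitriol, had 7.21, 52.7, 20.5 and 27.3 TPM, and CYP24A1, the calcitriol-degrading enzyme and a direct VDR target, had 4.66, 80.5, 13.05 and 47.5 TPM. Replicate 1 was the lowest library for these 3 genes, as for 37.5% of all detected genes. TRPV6, a calcium channel and VDR target, was the other detected gene of the list and was lowest in replicate 3, at 14.8, 16.5, 7.99 and 20.4 TPM. CAMP, an antimicrobial peptide gene that VDR induces in primates, had no count in any library, and 3 counts, taken as the limit for a count of 0, correspond to 0.0410 to 0.176 counts per 1000000.

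The PPARs, receptors for fatty acids and their derivatives, were in the lower part of the order. PPARD (chr6:35310335-35395968, +), the widely expressed PPAR of keratinocytes, measured 6.90, 22.2, 16.9 and 25.6 TPM from 748, 658, 678 and 851 counts. PPARG (chr3:12329349-12475855, +), the regulator of adipocyte and sebocyte differentiation, measured 13.1, 11.6, 8.90 and 17.0 TPM from 719, 175, 181 and 286 counts. PPARA (chr22:46546499-46639653, +), known for fatty acid oxidation in liver, measured 5.04, 4.34, 1.82 and 6.52 TPM from 1231, 290, 164 and 488 counts. The PPARD mean was 17.9 TPM, or 21.6 TPM without replicate 1. PPARA was the lowest PPAR in all 4 libraries. PPARD and PPARG changed places with the library: replicate 1 had more PPARG, and replicates 2 to 4 had more PPARD.

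Per length PPARD had 0.528 counts for each PPARG count in replicate 1 (95% interval 0.476 to 0.586), 1.91 in replicate 2 (1.61 to 2.27), 1.90 in replicate 3 (1.61 to 2.25) and 1.51 in replicate 4 (1.32 to 1.73). The intervals lie on opposite sides of 1, and the mean difference of log2(TPM + 1), PPARD minus PPARG, was 0.37 ± 0.81 (exact permutation p = 0.375), or 0.77 without replicate 1. Over the 4 libraries the mean difference was thus smaller than its SD, while the SD without replicate 1 was 0.17. PPARD over PPARA was 1.37 (1.25 to 1.501), 5.11 (4.45 to 5.89), 9.31 (7.84 to 11.1) and 3.93 (3.51 to 4.40), and PPARG over PPARA was 2.59 (2.36 to 2.85), 2.68 (2.21 to 3.24), 4.90 (3.95 to 6.09) and 2.60 (2.24 to 3.02). Both exceeded PPARA in 4 of 4 replicates. The order of PPARG and PPARA depended on gene length, as PPARA had more counts than PPARG in replicates 1, 2 and 4 and its deposited length is 10049 bases against 2263.

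Of 12 genes of fatty acid binding and PPAR response, 9 were detected. ACADVL and HADHA, enzymes of mitochondrial fatty acid oxidation, had 243 ± 60.1 and 194 ± 83.3 TPM (155 for HADHA without replicate 1), and CPT1A, which commits fatty acids to that pathway, had 120 ± 27.3 TPM. FABP5, the epidermal fatty acid binding protein that carries ligand to PPARD, measured 22.6, 22.4, 11.7 and 14.1 TPM. PLIN2, which coats lipid droplets, was at a similar level of 19.7 ± 4.05 TPM. ANGPTL4, a direct PPAR target, had 10.9 ± 5.23 TPM, while PDK4, another direct target, was below the threshold with 0.594 ± 0.516 TPM.

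NR3C1 (chr5:142657496-142815077, -), the receptor for cortisol and topical corticosteroids, measured 50.7, 16.1, 8.43 and 19.5 TPM from 11660, 1011, 717 and 1376 counts. Over protein-coding genes replicate 1 was the highest library and replicate 3 the lowest, 6.02 times apart. The mean of 23.7 ± 18.6 TPM therefore rested on replicate 1, and was 14.7 TPM without it. It also rested on computing TPM over protein-coding genes only. With TPM over all rows replicate 1 was no longer the highest library for NR3C1. The mean was then 13.9 ± 4.62, and PPARD stood above NR3C1 in the order. Within its library the gene stood at percentile 73.1 of detected genes in replicate 1 and between percentiles 32.2 and 43.4 in the others. NR3C1 exceeded PPARD only in replicate 1, and the mean difference of log2(TPM + 1) of 0.24 ± 1.66 (exact permutation p = 1) became -0.58 without that library. NR3C2, the mineralocorticoid receptor that also binds cortisol, had 44, 2, 1 and 2 counts.

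Of 15 genes for glucocorticoid receptor chaperones, cortisol enzymes and targets, 13 were detected. The chaperones were among the most abundant transcripts measured, with HSPA8 at 2687 ± 1151, HSP90AB1 at 1358 ± 404 and HSP90AA1 at 887 ± 371 TPM. TSC22D3, a target that mediates anti-inflammatory action, measured 134, 50.3, 38.3 and 51.7 TPM, with replicate 1 highest as for NR3C1. For both genes this held over protein-coding genes and not with TPM over all rows. FKBP5, a co-chaperone and classical target, was low, at 0.194, 0.892, 0.743 and 1.15 TPM, with replicate 1 lowest. PER1, a clock gene that glucocorticoids also induce, had 3.12, 22.7, 15.3 and 8.78 TPM. HSD11B2, which inactivates cortisol, had 6.26 ± 2.75 TPM, and HSD11B1, which regenerates it, had 0, 9, 1 and 4 counts.

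RORA (chr15:60780483-61521502, -), a receptor of the clock and of lymphoid and cerebellar development, had 65, 30, 30 and 16 counts, or 0.232, 0.391, 0.289 and 0.186 TPM. It was the lowest of the 10 receptors in every library, and its highest value was 2.10 times its lowest. The difference from PPARA, its neighbour in the order, was 2.01 ± 0.66 log2(TPM + 1) units. RORA-AS1, 1 of 7 annotated genes that overlap RORA on the opposite strand, had 59, 6, 5 and 5 counts, nearly as many as RORA in replicate 1. Other clock genes were detected in 7 of 8 cases, with CRY2 at 18.6 ± 4.60 TPM, NR1D2, a repressor that competes for RORA sites, at 15.6 ± 6.81 TPM, and ARNTL at 10.6, 7.67, 3.58 and 18.7 TPM. NR1D1, the other such repressor, measured 2.58, 86.9, 32.5 and 21.5 TPM.

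ESRRA (chr11:64073000-64084215, +), an orphan receptor that drives genes of mitochondrial respiration without a known natural hormone, measured 183, 105, 160 and 164 TPM from 11111, 1742, 3584 and 3044 counts. Replicate 2 was the lowest library. In that library alone RXRA exceeded ESRRA. The difference of log2(TPM + 1) was 0.36 ± 0.58 (exact permutation p = 0.375), a mean smaller than its SD. Without length the difference was -1.19, and with the exons of protein-coding transcripts as length it was -1.61, with RXRA the higher gene on average. ESRRA stood between percentiles 86.2 and 93.5 of detected genes. TRMT112, which overlaps ESRRA on the opposite strand by 252 bases of the deposited spans, had 11948, 2434, 3322 and 1999 counts, and its part in the ESRRA counts was not tested. NR2F6, an orphan receptor of another subfamily, came closest to ESRRA among the other receptors, with 71.3, 151, 184 and 177 TPM. ESRRA per length was 2.57 times NR2F6 in replicate 1 and 0.696 to 0.927 times in the others.

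Of 7 genes of mitochondrial respiration known as ESRRA targets or partners, 6 were detected, led by ATP5B, a subunit of ATP synthase, at 1251 ± 168 TPM. SDHB of the succinate dehydrogenase complex had 214 ± 58.5 TPM and CYCS, cytochrome c, had 91.1 ± 29.9 TPM. PPARGC1A, the inducible coactivator that ESRRA and the PPARs share, was below the threshold with 0.886, 0.179, 0.0441 and 0.160 TPM, from 163, 9, 3 and 9 counts. PPARGC1B, its relative, measured 5.47, 9.43, 5.55 and 5.68 TPM. PPARGC1B was thus the higher of the pair in all 4 libraries.

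In the order of mean levels the 10 receptors ran ESRRA, RXRA, RARG, RARA, VDR, NR3C1, PPARD, PPARG, PPARA and RORA. Of the 45 pairs, 36 had the same order in 4 of 4 replicates, each with the smallest possible exact permutation p of 0.125. Of the 9 pairs of neighbours only 4 kept their order in every replicate, RXRA over RARG, RARG over RARA, PPARG over PPARA (by 1.38 ± 0.29 log2 units) and PPARA over RORA. The other 5 pairs of neighbours changed order between replicates, and each mean difference was smaller than its SD. With a smallest possible p of 0.125, the test could not have shown a difference for any pair. RARA had the higher mean level than VDR, but the mean difference of log2(TPM + 1) was -0.20 ± 0.89, with RARA higher in 2 of 4 replicates (exact permutation p = 0.75), and 0.21 without replicate 1. VDR exceeded NR3C1 in 3 of 4 replicates by 0.46 ± 1.20 (exact permutation p = 0.5), and by 1.06 ± 0.24 in the 3 replicates other than replicate 1. Without length the difference turned to -0.37. RARG, PPARA and RORA held ranks 3, 9 and 10 in all 4 libraries, whereas RARA was at rank 8 in replicate 1 and at rank 4 or 5 elsewhere.

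The 48 nuclear receptor genes together made up 827, 959, 816 and 1024 TPM in replicates 1 to 4, and the 10 receptors described here supplied 61.2, 48.5, 47.0 and 56.1% of that level (53.2 ± 6.64%). Of the other 38 receptor genes, 18 were detected (47.4%). NR2F6 led these with 146 ± 51.6 TPM, followed by NR1H2, the liver X receptor found in most tissues, at 77.4 ± 8.50 TPM, and NR1D1 at 35.9 ± 36.2 TPM. THRA, a thyroid hormone receptor whose 3′ end overlaps NR1D1 on the opposite strand, had 23.3 ± 6.82 TPM. NR1H3, the other liver X receptor, had 17.8 ± 3.34 TPM, and THRB, the other thyroid hormone receptor, had 8.16 ± 6.08 TPM. Of the estrogen and progesterone receptors ESR2 had 7, 80, 15 and 52 counts (mean 1.01 TPM), ESR1 had no more than 2 counts in any library and PGR had none. NR0B1 and NR1I2 also had no count, and 8 of the 38 had at most 3 counts in each of the 4 libraries.

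**Figure D3:**
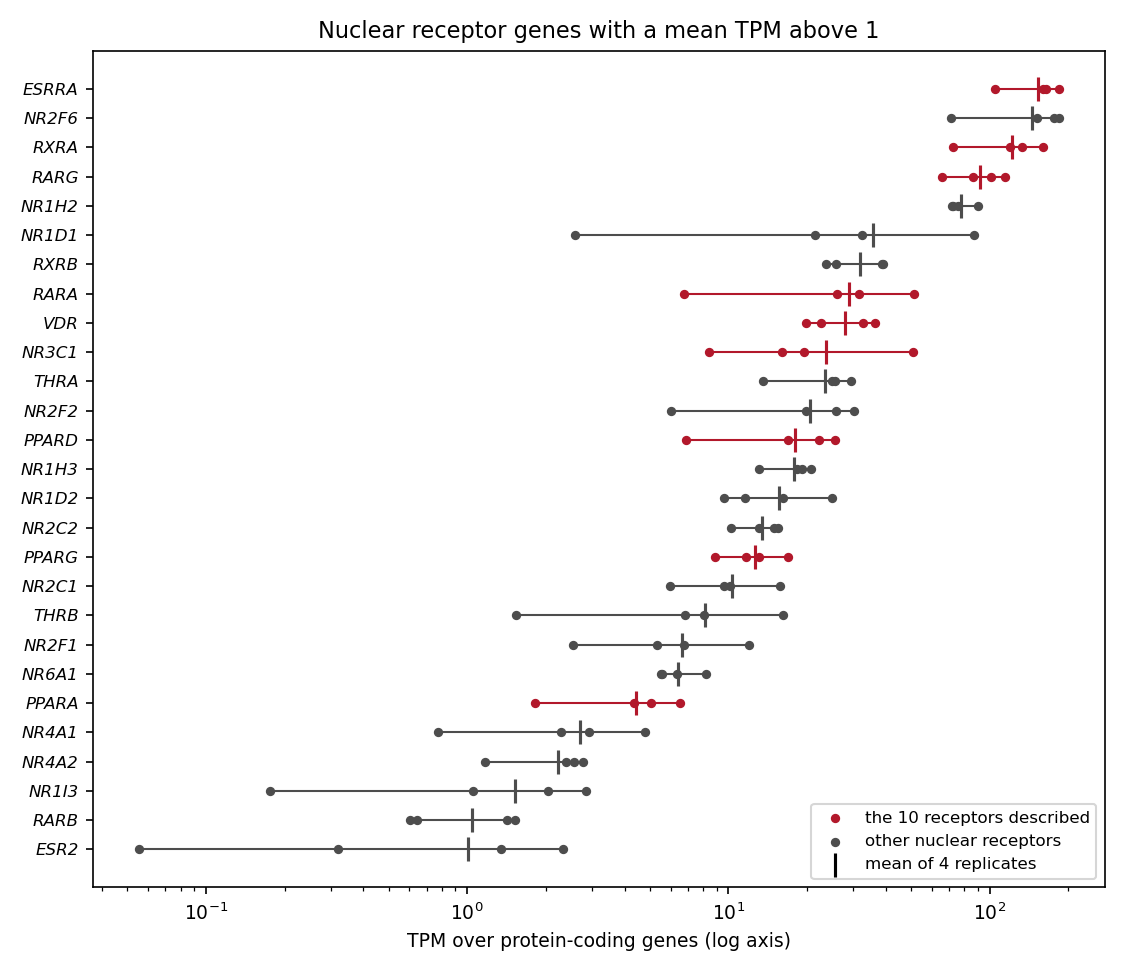
Levels (TPM over protein-coding genes, log axis) of the nuclear receptor genes with a mean above 1 TPM, with points for the 4 replicates, a line over their range and a tick at the mean. The 9 detected receptors described here are in red, and ESRRA, NR2F6, RXRA and RARG lead the family with means of 153, 146, 121 and 91.9 TPM.

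Receptors act through coactivators and corepressors, and most of these were expressed. Of 13 coactivator genes 12 were detected, led by PRMT1 (333 ± 116 TPM) and CARM1 (94.1 ± 40.2 TPM), methyltransferases of arginine residues, and by NCOA3 (149, 42.9, 18.6 and 58.6 TPM), a member of the steroid receptor coactivator family. MED1, the Mediator subunit that contacts liganded receptors, had 42.3 ± 12.3 TPM. All 9 corepressor genes were detected. GPS2 and HDAC3, parts of the corepressor complex, had 164 ± 28.04 and 84.6 ± 3.58 TPM, and the scaffold NCOR1 had 43.7 ± 16.8 TPM. HR, a corepressor of VDR whose loss causes hair loss, measured 74.4, 142, 77.6 and 93.5 TPM.

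Retinoid handling genes were detected in 11 of 19 cases. ALDH1A3, which makes retinoic acid from retinal, was high in all libraries at 364, 781, 604 and 895 TPM. DHRS3 and RDH11, retinal reductases, had 145 ± 77.3 (108 without replicate 1) and 111 ± 20.1 TPM. CRABP2, which delivers retinoic acid to the RARs, measured 163, 26.1, 14.6 and 18.0 TPM, and ALDH1A1, another retinal dehydrogenase, measured 156, 1.78, 0.845 and 1.19 TPM. Both were far higher in replicate 1. Of the enzymes that degrade retinoic acid, CYP26A1 was highest in replicate 1 (15.3, 6.73, 3.64 and 9.91 TPM) and CYP26B1 was lowest there (2.12, 23.4, 8.21 and 20.3 TPM).

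**Figure D4:**
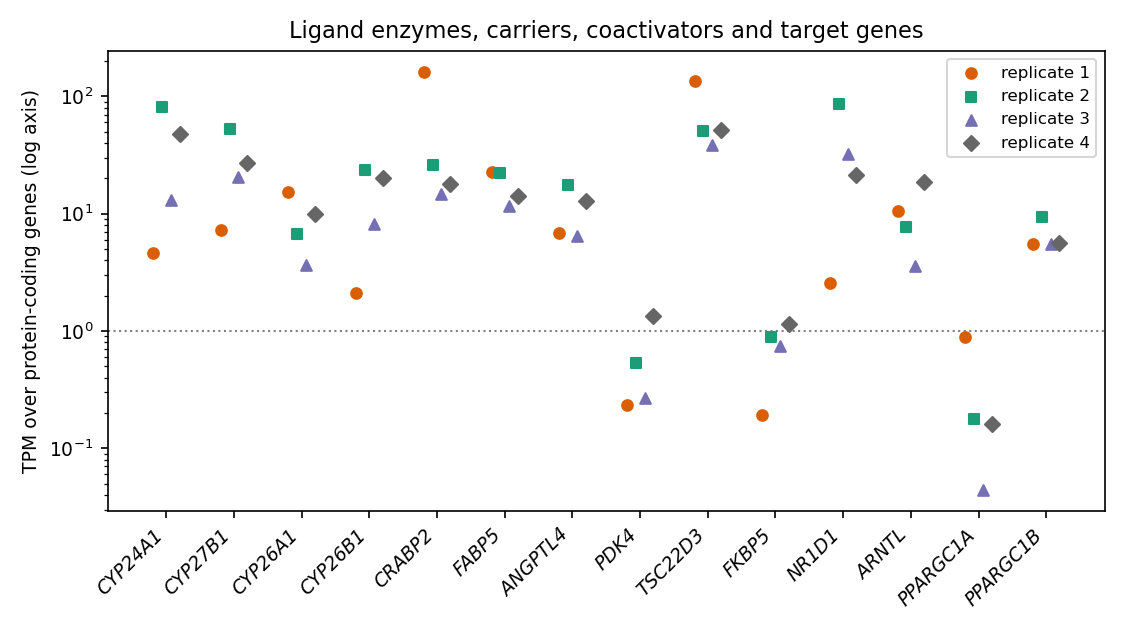
Levels (TPM over protein-coding genes, log axis) of ligand enzymes, carriers, coactivators and target genes named for the receptors, with a point per replicate and a dotted line at 1 TPM. Replicate 1 is the highest library for CRABP2 (163 TPM) and TSC22D3 (134 TPM) and the lowest for CYP24A1 (4.66 TPM), CYP27B1 (7.21 TPM), FKBP5 (0.194 TPM) and NR1D1 (2.58 TPM).

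Because replicate 1 stood apart, each receptor in it was compared with the mean of replicates 2 to 4. This sets 1 library against the others and carries no test. The levels are those over protein-coding genes, and over all rows every value of replicate 1 is lower relative to the others. RARA and PPARD were more than 2-fold lower in replicate 1, by -2.43 and -1.64 log2 units, or 2 of the 9 detected receptors, and 23.2% of all detected protein-coding genes were that much lower. NR3C1 was more than 2-fold higher, by 1.79 log2 units, or 1 of 9 against 18.3% of detected genes. The other 6 lay within 2-fold, from -0.63 for VDR to 0.36 for ESRRA. The receptors thus departed in replicate 1 about as often as genes in general did.

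The ratio of replicate 1 to the others fell with the G and C content of the transcript (Spearman's rho -0.50 over 11889 genes, a description across genes that are not replicates). The median log2 ratio was 0.98 in the lowest of 20 bins by GC content and -1.06 in the highest. NR3C1, with the lowest GC of the detected receptors (39.1%), lay 0.98 above the median of its bin. RARA (63.0%) and PPARD (59.0%) lay 1.55 and 1.03 below the medians of theirs. ESRRA and RXRA (each 63.2%, for RXRA from a transcript much shorter than the deposited length) lay 1.24 and 1.07 above the median of their bin, from ratios of 0.36 and 0.18. With bin medians subtracted, 2 receptors were more than 2-fold lower (RARA and PPARD) against 18.3% of genes, and 2 were more than 2-fold higher (RXRA and ESRRA) against 13.7%. The part of GC content in these values was not tested.

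**Figure D5:**
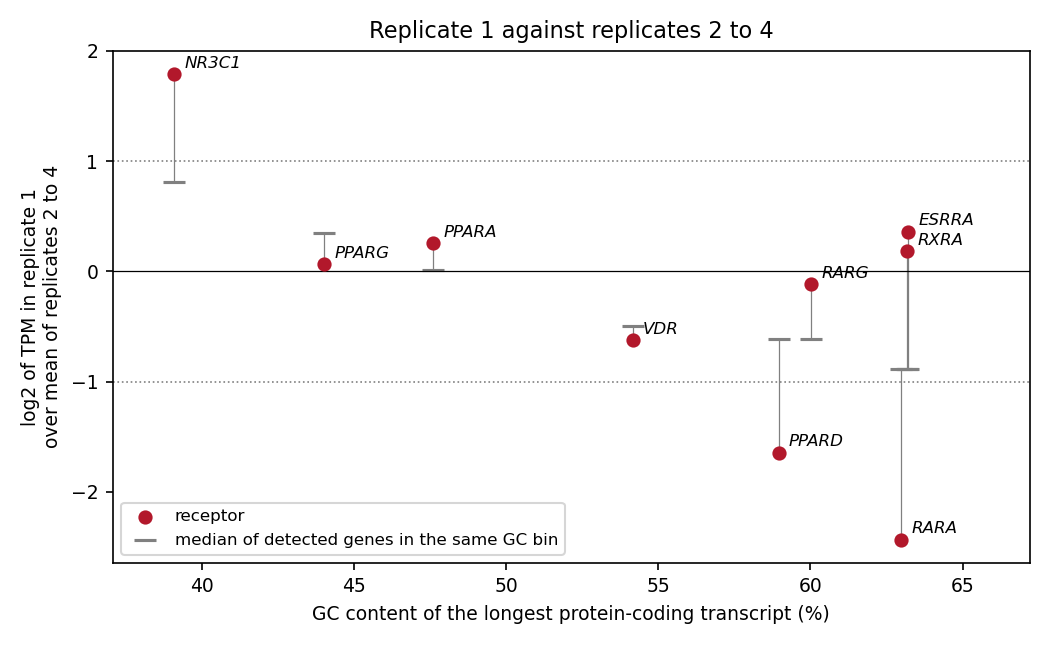
Log2 ratio of replicate 1 to the mean of replicates 2 to 4 (y axis) against the G and C percentage of the longest protein-coding transcript (x axis) for the 9 detected receptors, with the median of detected genes in the same GC bin as a grey dash joined to each point and dotted lines at 2-fold. NR3C1 lies above its dash at 39.1%, RARA and PPARD lie below theirs, and RXRA and ESRRA lie above theirs at 63.2%.

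Replicate 3 was the lowest library for 5 of the 10 receptors and the highest for none, where 40.2% of detected genes were lowest and 13.3% highest in that library. Against the mean of replicates 2 and 4 its log2 ratio was -1.58 for PPARA, -1.08 for NR3C1 and -0.95 for RXRA, and 0.25 for ESRRA. Over 12139 genes this ratio fell with gene length (Spearman's rho -0.51). The medians of genes of like length were -1.18 for PPARA and NR3C1, -0.89 for RXRA and -0.15 for ESRRA. PPARG and RARG, which are shorter, were also lowest in replicate 3, at -0.68 and -0.71 against medians of -0.10 and -0.35. NR3C1 and RXRA were thus close to the medians of their length, while PPARA, RARG and PPARG lay below theirs, and the part of length in these values was not tested. Replicate 4 gave the highest value for 6 receptors, where 23.3% of detected genes were highest in that library.

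Across the 4 libraries the receptors varied about as much as detected genes in general. The ratio of the highest to the lowest library had a median of 2.21 over the 9 detected receptors (full range 1.73 to 7.63). Over all detected genes the median was 2.43 (interquartile range 1.75 to 4.15, a narrower measure than the full range). RARG (1.73) and ESRRA (1.75) were the steadiest, and RARA (7.63) and NR3C1 (6.02) varied most. For no receptor did 1 library stand apart from the other 3 by more than Dixon's 95% limit (0 of 10), which 9.82% of detected genes passed.

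The pattern over replicates was also compared between the receptors and their coregulators, as the root mean square difference of log2(TPM + 1) centred on each gene's mean, over 4 replicates and 48 detected genes. RXRA was closest to NCOA1, a steroid receptor coactivator (0.032), and PPARA was closest to RXRA (0.108). The added 1 shrinks the changes of low genes and so affects these distances. In TPM the highest library was 2.62 times the lowest for NCOA1 and 3.59 times for PPARA, against 2.21 for RXRA. RARG was closest to NR2C2 (0.084), PPARG to NCOA1 (0.118) and PPARD to CARM1 (0.130). NR3C1, which over protein-coding genes was highest in replicate 1, was closest to NCOA3 (0.197). RARA, which was lowest there, was closest to NR2F2 (0.223). For VDR the nearest gene was NR4A2 (0.204) and for ESRRA it was RXRB (0.211). These likenesses rest on 4 libraries that share depth and base composition between genes.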

How the data were processed

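RNA sequencing of 4 untreated HaCaT replicates was analysed from 1 table per replicate. For every replicate the authors deposited unnormalised gene counts beside gene length, position and biotype. They also deposited RPKM for replicates 1 and 2 and TPM for replicates 3 and 4. Both columns were recomputed from the counts and lengths to within a relative difference of 6.7e-07. The submitters' processing notes name hg19, HISAT2, HISAT, TopHat2 and Bowtie2, without roles or versions. The counting program, its use of strand and the annotation are not given in the sources used here.

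TPM was computed over the 19233 protein-coding rows, so that replicates share a unit. Differences of log2(TPM + 1) between receptors within a replicate were tested for 45 pairs by flipping the signs of the 4 differences in an exact, two-sided permutation test. The added 1 makes differences between low genes smaller than they are. Ratios of counts per length have 95% Clopper-Pearson intervals. GC content and alternative lengths came from GENCODE release 29 by gene name, with 97.7% of detected genes and 10 of 10 receptors matched. Since there is 1 condition, no differential expression was tested. The receptors and gene lists were chosen with earlier results of these data known. Beside the 10 receptors, the text names the 3 highest genes of each list, the partners, enzymes and direct targets of a receptor, the leading marker and the nearest gene in pattern. Other genes are named where a count of 5 or fewer is given, and some markers with more reads are named beside them. These were chosen after their values were seen. The alternatives were TPM over all rows, deposited values, counts without length, other lengths, pseudocounts, thresholds and scalings, and leaving out each replicate. The 2-fold calls, the gap over the range and the ranking of levels were tested on simulated counts, which held no GC or length effect. The other calculations were not tested in this way. A planned comparison of protein sequences was not run. A few genes of the lists are not reported here. Calculations ran in Python 3.11.15 with SciPy 1.17.1, NumPy 2.4.6 and pandas 2.3.3, and figures were drawn with matplotlib 3.10.9.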

Additional observations from a re-analysis of the deposited data

Results flagged for a closer look

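The genes examined were the 10 receptors and 54 other named genes. In 5 of these 64, 1 library lay apart from the other 3 by more than Dixon's 95% limit for 4 samples of the gap over the range. Chance flags about 1 in 20, or 3.2 of 64, and 9.82% of all detected genes passed this limit. The 64 were picked for naming, some after their values were seen, so their count cannot be judged against chance. Genes of the lists that are not named above also passed the limit. None of the 10 receptors was among the 5. NR3C2 (0.888), VWF (0.950), RXRG and PTPRC, also named above, passed the limit too, with replicate 1 the highest library. COL1A2 (0.907) passed it with replicate 3 the highest. Their means were below 1 TPM and they are not counted among the 5. The mean of PPARGC1A, which is counted, was also below 1 TPM. Among the 5, replicate 1 was the distant library for ALDH1A1 (gap 0.994 of the range, 156 TPM against 0.845 to 1.78), CRABP2 (0.923, 163 TPM against 14.6 to 26.1), TSC22D3 (0.861, 134 TPM against 38.3 to 51.7) and PPARGC1A (0.840, 0.886 TPM against 0.0441 to 0.179). With TPM over all rows TSC22D3 was not highest in replicate 1. For PPARGC1B (0.947) it was replicate 2, with 9.43 TPM against 5.47 to 5.68.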

How the results depend on the processing

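Of 165 differences between receptors recomputed under the alternatives, 140 moved by less than 1 SD of the main difference and 25 by more, of which 8 came from counts without length and 8 from the exons of protein-coding transcripts as length. The sign changed in 6. These were ESRRA minus RXRA in both of those settings, VDR minus NR3C1 (-0.37) and PPARG minus PPARA without length, and RARA minus VDR (0.21) and NR3C1 minus PPARD (-0.58) without replicate 1. PPARD minus PPARG, 0.37 log2 units in the main calculation, was 1.30 from counts per 1000000 without length and 1.32 with the union of all annotated exons as length. PPARG minus PPARA, 1.38 in the main calculation, was -0.50 from counts without length, where the longer PPARA gains. Receptors more than 2-fold higher in replicate 1 numbered 2 after centring by GC content, an alternative added after seeing the data, against 1 without it. The number of pairs in the same order in every replicate, 36, was 34 to 39 under other settings and 36 to 42 on leaving out 1 replicate (42 without replicate 1). RXRA stood above ESRRA from counts without length and with the exons of protein-coding transcripts as length, where its length was 2115 bases in place of 7310. With other thresholds 8 to 10 receptors were detected. Of the recomputed levels 88 moved by less than 1 SD and 22 by more. The ratio of RXRA to its 6 partners, 0.676, was 1.24 without length and 2.60 with protein-coding exons, and 0.580 to 0.732 on leaving out 1 replicate, in settings added after seeing the data. Levels below 3 counts per library cannot be told from 0 at this depth.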
